A study of Mus musculus with 8 samples.

Results

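The 10 genes described here encode the cell surface receptors of the TGF-β family: the type I receptors *Tgfbr1*, *Acvr1b*, *Acvr1*, *Bmpr1a* and *Bmpr1b*, the type II receptors *Tgfbr2*, *Acvr2a*, *Acvr2b* and *Bmpr2*, and the type III receptor *Tgfbr3*. They were chosen by gene symbol, and each symbol matched exactly 1 of the 24849 rows of the expression files. Poly(A)+ RNA was sequenced from MPI-II mouse embryonic stem cells (mESCs), a 129S2/SvPas line, in 4 groups of 2 samples each: wild type (WT) and *Pcgf5*-/- cells at day 0, and both genotypes at day 6. At day 0 all cells grew on feeder cells in serum medium with LIF and the inhibitors CHIR99021 and PD0325901, which keep mESCs undifferentiated, and at day 6 all had been cultured in N2B27, a serum-free medium that drives mESCs towards a neural fate. The *Pcgf5*-/- cells carry TALEN-made disruptions of *Pcgf5*, a subunit of a variant Polycomb repressive complex 1 that adds ubiquitin to histone H2A. The study calls its RNA-seq samples independent biological samples, and the sources used here do not say from how many clones the *Pcgf5*-/- samples came or what set the samples of a group apart.

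A TGF-β family ligand brings type II receptors, which are constitutively active serine/threonine kinases, together with type I receptors, which the type II receptors phosphorylate. TGFBR1 and ACVR1B pass the TGF-β, activin and NODAL signal to SMAD2 and SMAD3, whereas ACVR1, BMPR1A and BMPR1B pass the BMP signal to SMAD1, SMAD5 and SMAD9. TGFBR3, or betaglycan, has no kinase and presents ligand to the others. Inhibition of both branches is widely used to direct pluripotent cells to the neural fate.

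The promoter windows of *Tgfbr1* and *Acvr2a* are shown because these receptors differed most between the genotypes at day 6 on the log2(FPKM + 1) scale, and that of *Tgfbr2* because its mRNA followed another course. Each run is the 250 bases before an annotated start (for *Tgfbr1* the upstream one of 2) in RefSeq's GRCm38.p6 table, written 5′ to 3′ along the gene, and each occurs once in NCBIM37 (mm9), the build of the expression files, at the coordinates given. Capitals mark GC boxes, searched as GGGCGG and, for the other strand, CCGCCC.
*Tgfbr1*, chr4:47365844-47366093, plus strand: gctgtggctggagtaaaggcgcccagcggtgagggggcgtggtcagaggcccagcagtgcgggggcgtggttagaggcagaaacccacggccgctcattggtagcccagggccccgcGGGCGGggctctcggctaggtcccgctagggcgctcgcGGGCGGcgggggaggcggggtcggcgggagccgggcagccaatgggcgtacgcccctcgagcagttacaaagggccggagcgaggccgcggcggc
*Acvr2a*, chr2:48669379-48669628, plus strand: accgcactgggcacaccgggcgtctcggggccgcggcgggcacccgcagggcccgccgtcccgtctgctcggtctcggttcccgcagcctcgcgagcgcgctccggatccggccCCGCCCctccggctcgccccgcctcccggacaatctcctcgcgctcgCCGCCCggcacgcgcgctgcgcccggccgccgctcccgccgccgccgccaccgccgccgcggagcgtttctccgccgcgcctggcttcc
*Tgfbr2*, chr9:116084482-116084731, minus strand: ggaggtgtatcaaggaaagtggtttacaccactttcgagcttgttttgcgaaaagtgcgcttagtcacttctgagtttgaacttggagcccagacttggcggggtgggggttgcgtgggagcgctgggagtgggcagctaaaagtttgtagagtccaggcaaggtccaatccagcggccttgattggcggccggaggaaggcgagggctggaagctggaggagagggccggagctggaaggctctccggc
No NCBIM37 transcript of the GENCODE vM1 annotation lies over these 3 windows. The *Tgfbr1* and *Acvr2a* windows hold 2 GC boxes each and the *Tgfbr2* window none, where 32.7% of 32851 windows of the same length hold at least 1. The *Acvr2a* window has 49 CpG dinucleotides, more than 99.9% of all windows, *Tgfbr1* has 29 and *Tgfbr2* has 12, beside a median of 6 over all windows. Over the 12 windows listed for 9 of the receptors, the median was 23 CpG dinucleotides, and 7 windows held a GC box. *Bmpr1a* has 36 CpG dinucleotides and 4 GC boxes in its window, which annotated transcripts of *Bmpr1a* and *Gm17110* overlap. The 3 *Bmpr1b* windows have 1, 5 and 5 and no GC box. All 3 lie over annotated *Bmpr1b* transcripts, inside the locus of the gene (chr3:141500100-141832192, minus strand). They therefore do not describe the sequence before its upstream end.

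Expression was deposited as FPKM, a fragment count that Cufflinks divides by exon length and library size, so levels of different receptors can be compared. The files give no read counts. Cufflinks' own confidence interval had a half-width of 4.19% to 8.76% of the value for *Tgfbr1* and 15.7% to 73.0% for *Bmpr1b*, the least abundant at day 0. In 14 of 40 replicate pairs of receptor values the intervals of the replicates did not overlap, so the spread between samples there was larger than this interval covers. *Pcgf5* itself was lower in *Pcgf5*-/- cells at day 6 (log2 fold change -2.33, standard error 0.28, limma adjusted p = 0.00421), and at day 0 the difference was -1.07 (adjusted p = 0.105). Its FPKM was 1.28 and 1.84 in the *Pcgf5*-/- samples of day 0 and 0.669 and 0.457 in those of day 6. The replicates of a group had a Pearson correlation of 0.972 to 0.974 over the 13214 genes tested, a description across genes. Genes of chromosomes 6 and 11 stood higher in *Pcgf5*-/- cells at day 0 (medians of 0.41 and 0.48 on the log2 scale, beside 0.11 for all genes). They did so at day 6 as well (0.37 and 0.38, beside 0.020), and no receptor gene lies on either chromosome.

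The labelled states were checked against marker genes. The summed FPKM of 10 naive pluripotency markers was 1476 to 1563 in the day 0 samples, 229 and 101 in WT at day 6, and 699 and 657 in *Pcgf5*-/- cells at day 6. The summed FPKM of 12 neural progenitor markers was 255 to 338 at day 0, 709 and 761 in WT at day 6, and 306 and 299 in *Pcgf5*-/- cells at day 6. All 12 feeder fibroblast markers had values above 0 in every day 0 sample, with sums of 352 and 252 FPKM in WT and 227 and 749 FPKM in *Pcgf5*-/- cells, and the sums at day 6 were 46.4 and 128 in WT and 26.7 and 30.5 in *Pcgf5*-/- cells. In such bulk samples, fewer cells of a type and less RNA per cell cannot be told apart.

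**Figure D1:**
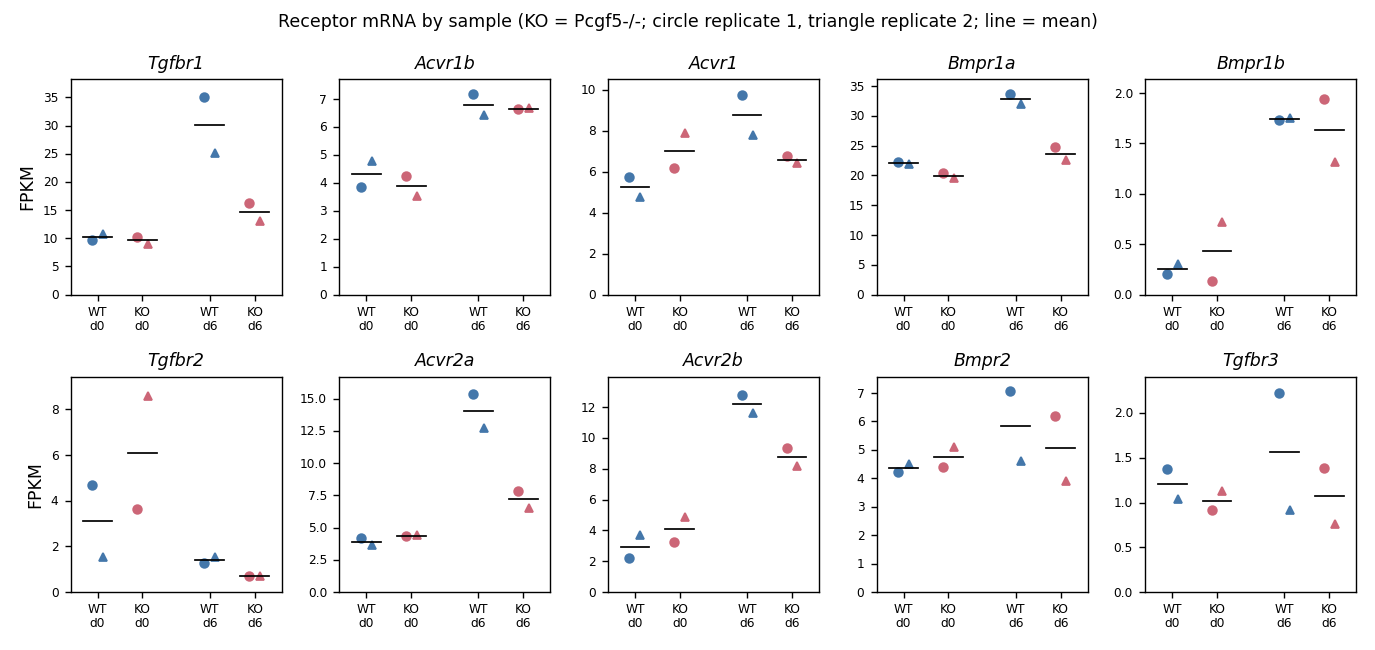
FPKM of the 10 receptors in each sample, 1 panel a gene with its own linear axis from 0, for WT (blue) and *Pcgf5*-/- cells (red, KO) at day 0 (d0) and day 6 (d6). Circles are replicate 1, triangles replicate 2 and lines the mean, and in the *Tgfbr1*, *Acvr2a*, *Acvr2b* and *Bmpr1a* panels the WT samples of day 6 stand above all other samples.

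The receptor mRNAs differed widely in level, and their order changed between the days. In WT at day 0, *Bmpr1a* stood highest at 22.0 ± 0.237 FPKM (SD, n = 2), above 73.9% of the tested genes, and *Tgfbr1* came next at 10.2 ± 0.747 FPKM. *Acvr1* followed at 5.24 ± 0.708 FPKM, and its samples lay above those of *Bmpr2*. *Bmpr2*, *Acvr1b*, *Acvr2a*, *Tgfbr2* and *Acvr2b* had means of 4.37 down to 2.95 FPKM, and each overlapped with its neighbour in this order. *Tgfbr3* at 1.21 ± 0.239 FPKM and *Bmpr1b* at 0.254 ± 0.0743 FPKM stood below these and apart from each other. In *Pcgf5*-/- cells at day 0 the first 2 and the last 2 places were held by the same receptors in the same order, and the 6 between them overlapped each with its neighbour. In WT at day 6, *Bmpr1a* (32.9 ± 1.18 FPKM) and *Tgfbr1* (30.1 ± 7.11 FPKM) overlapped at the top, *Acvr2a* and *Acvr2b* came after them, and *Tgfbr2* was last. In *Pcgf5*-/- cells at day 6, *Bmpr1a* (23.6 ± 1.55 FPKM) lay apart from *Tgfbr1* (14.6 ± 2.30 FPKM), *Acvr2b* came after them, and *Tgfbr2* was last again and apart from *Tgfbr3*.

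To see how the receptors changed when WT mESCs entered neural differentiation, day 6 was compared with day 0 by limma on log2(FPKM + 1). In WT, 7 of the 10 receptors rose and none fell past the threshold. All 5 type I receptors and the activin type II receptors *Acvr2a* and *Acvr2b* rose, by 0.56 to 1.76 on the log2(FPKM + 1) scale. Over all tested genes 34.2% rose and 16.2% fell in this comparison, and the median over the receptors was 0.60, beside 0.22 for all genes. In *Pcgf5*-/- cells 4 receptors rose (*Acvr1b*, *Bmpr1b*, *Acvr2a* and *Acvr2b*) and *Tgfbr2* fell, where 21.9% of all tested genes rose and 10.4% fell. The receptor median there was 0.39, beside 0.13 for all genes. Without any 1 of the 4 *Pcgf5*-/- samples a group holds 1 sample, and this count of 5 and the calls over all tested genes both fell.

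*Tgfbr1*, the type I receptor of TGF-β itself (chr4:47366177-47427796, plus strand), was present at 9.70 and 10.8 FPKM in WT and at 10.2 and 9.05 FPKM in the *Pcgf5*-/- samples at day 0. At day 6 it was present at 35.1 and 25.1 FPKM in WT and at 16.3 and 13.0 FPKM in *Pcgf5*-/- cells. The genotypes overlapped at day 0, and at day 6 both WT samples stood above every other sample. In WT *Tgfbr1* rose 2.94-fold by the ratio of mean FPKM (log2 fold change 1.45, standard error 0.20, limma adjusted p = 0.000553). In *Pcgf5*-/- cells the ratio was 1.52 with samples that did not overlap, and the log2 fold change of 0.55 was not past the threshold (limma adjusted p = 0.0616).

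*Acvr1b*, the type I receptor of activin and NODAL (chr15:101004556-101043032, plus strand), had 3.84 and 4.80 FPKM in WT and 4.25 and 3.53 FPKM in the *Pcgf5*-/- samples at day 0. By day 6 the values were 7.16 and 6.44 FPKM in WT and 6.64 and 6.67 FPKM in *Pcgf5*-/- cells. The genotypes overlapped on both days, and all day 6 samples lay above all day 0 samples. *Acvr1b* rose by 0.56 in WT (limma adjusted p = 0.0326) and by 0.65 in *Pcgf5*-/- cells (limma adjusted p = 0.0274), on the log2(FPKM + 1) scale.

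Among the BMP type I receptors, *Bmpr1a* (chr14:35224254-35315732, minus strand), which binds BMP2 and BMP4, had 22.2 and 21.8 FPKM in WT and 20.4 and 19.5 FPKM in the *Pcgf5*-/- samples at day 0. By day 6 the values were 33.7 and 32.1 FPKM in WT and 24.7 and 22.5 FPKM in *Pcgf5*-/- cells. Its replicates lay close together, and the WT samples of day 6 stood apart from the rest. *Bmpr1a* rose 1.49-fold by mean FPKM in WT (log2 fold change 0.56, standard error 0.12, limma adjusted p = 0.00602), and in *Pcgf5*-/- cells the change was 0.23 (limma adjusted p = 0.184). *Acvr1* (chr2:58298849-58419239, minus strand), which binds BMP6 and BMP7 among other ligands, had 5.74 and 4.74 FPKM in WT and 6.18 and 7.86 FPKM in the *Pcgf5*-/- samples at day 0. By day 6 the values were 9.76 and 7.79 FPKM in WT and 6.76 and 6.41 FPKM in *Pcgf5*-/- cells. The order of the genotypes was thus opposite on the 2 days, without overlap on either day. *Acvr1* rose in WT by 0.64 (limma adjusted p = 0.0234), and in *Pcgf5*-/- cells its value was -0.074 (limma adjusted p = 0.797). *Bmpr1b* (chr3:141500100-141832192, minus strand) had 0.132 to 0.725 FPKM in the day 0 samples, and at day 6 it had 1.73 and 1.75 FPKM in WT and 1.95 and 1.32 FPKM in *Pcgf5*-/- cells. It rose by 1.13 on the log2(FPKM + 1) scale in WT (limma adjusted p = 0.00480) and by 0.90 in *Pcgf5*-/- cells (limma adjusted p = 0.0217), from levels under 1 FPKM at day 0. By mean FPKM this was 6.86-fold and 3.81-fold, and with a pseudocount of 0.01 the log2 fold changes were 2.76 and 2.32.

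Of the type II receptors, *Acvr2a* and *Acvr2b*, which bind activins, NODAL and several BMPs, rose most. *Acvr2a* (chr2:48669629-48758784, plus strand) had 4.18 and 3.64 FPKM in WT and 4.34 and 4.43 FPKM in the *Pcgf5*-/- samples at day 0. By day 6 the values were 15.3 and 12.8 FPKM in WT and 7.87 and 6.53 FPKM in *Pcgf5*-/- cells. The *Pcgf5*-/- samples of day 6 lay between the day 0 samples and the WT samples of day 6. *Acvr2a* rose 3.59-fold by mean FPKM in WT (log2 fold change 1.61, standard error 0.18, limma adjusted p = 0.000218) and 1.64-fold in *Pcgf5*-/- cells (log2 fold change 0.60, limma adjusted p = 0.0346). It shares 446 of 5686 annotated exon bases with *Orc4* on the opposite strand, a gene of the origin recognition complex, which had 10.2 to 13.3 FPKM at day 0, 19.5 and 17.1 in WT and 13.5 and 17.2 in *Pcgf5*-/- cells at day 6. Whether the libraries keep strand is not given in the sources used here, so fragments from the shared bases may belong to either gene. The same limit holds for *Bmpr1a*, which shares 290 of 6351 annotated exon bases with *Gm17110* on the opposite strand. No expression value is given for *Gm17110*. *Acvr2b* (chr9:119311619-119342624, plus strand) had 2.20 and 3.71 FPKM in WT and 3.26 and 4.86 FPKM in the *Pcgf5*-/- samples at day 0, and 12.8 and 11.6 FPKM in WT and 9.36 and 8.16 FPKM in the *Pcgf5*-/- samples at day 6. All day 6 samples lay above all day 0 samples, and at day 6 the WT samples lay above the *Pcgf5*-/- samples. Its rise in WT was 4.13-fold by mean FPKM (log2 fold change 1.76, standard error 0.24, limma adjusted p = 0.000611), the largest on the log2(FPKM + 1) scale among the receptors, and in *Pcgf5*-/- cells it was 2.16-fold (log2 fold change 0.96, limma adjusted p = 0.0187).

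*Bmpr2* (chr1:59821123-59934925, plus strand), the type II receptor specific to BMPs and related ligands, had 4.22 to 5.11 FPKM in the 4 day 0 samples, and its 2 replicates stood apart at day 6, at 7.06 and 4.61 FPKM in WT and 6.18 and 3.92 FPKM in *Pcgf5*-/- cells. *Tgfbr3* (chr5:107535589-107718614, minus strand) had 0.917 to 1.38 FPKM at day 0, and 2.22 and 0.912 FPKM in WT and 1.38 and 0.759 FPKM in the *Pcgf5*-/- samples at day 6. In both genes the spread between replicates at day 6 was as large as any difference between groups, and neither passed the threshold in a comparison. Their log2 fold changes over the 6 days were 0.33 and 0.17 in WT and 0.050 and 0.020 in *Pcgf5*-/- cells.

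**Figure D2:**
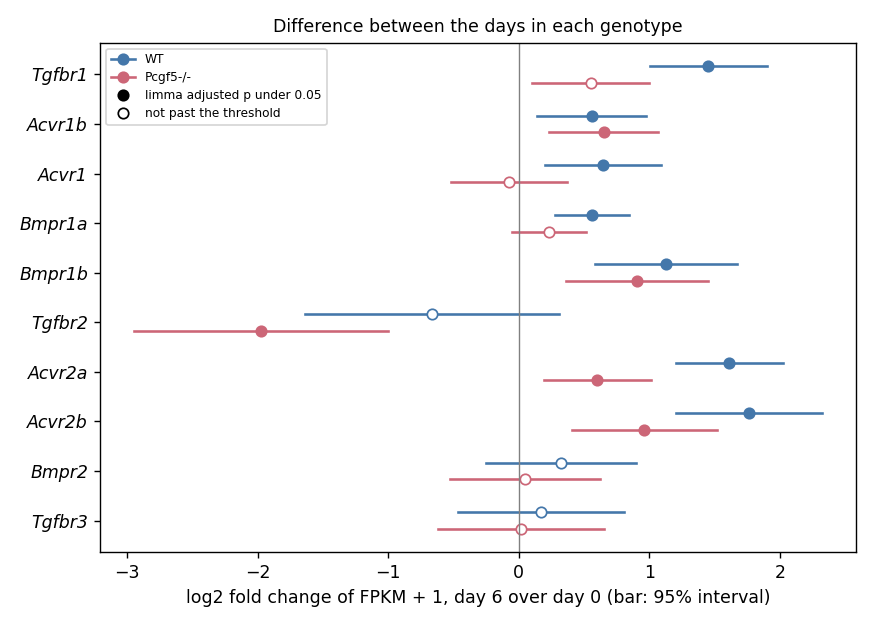
Log2 fold change of FPKM + 1 from day 0 to day 6 in WT (blue) and *Pcgf5*-/- cells (red), with bars for the 95% interval of the limma fit and filled points for an adjusted p under 0.05. Filled points lie right of 0 for 7 receptors in WT and 4 in *Pcgf5*-/- cells, and left of 0 for *Tgfbr2* in *Pcgf5*-/- cells; quantile normalization leaves 5 rising receptors in WT and 1 in *Pcgf5*-/- cells.

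The size of the day effect depended on the scaling. Quantile normalization moved the median of all genes from 0.22 to 0.0050 in WT and from 0.13 to 0.025 in *Pcgf5*-/- cells, and with it the receptors' values. Under it *Tgfbr1* (1.305), *Acvr2a* (1.26), *Acvr2b* (1.38), *Bmpr1b* (0.76) and *Bmpr1a* (0.50) still rose in WT, *Acvr1* (0.24, limma adjusted p = 0.333) and *Acvr1b* (0.11, limma adjusted p = 0.660) no longer passed the threshold, *Tgfbr2* passed it as a fall (-1.11, limma adjusted p = 0.0493), and *Bmpr2* and *Tgfbr3* turned negative. In *Pcgf5*-/- cells only *Acvr2b* (0.72, limma adjusted p = 0.0466) and *Tgfbr2* (-2.28, limma adjusted p = 0.00470) passed under quantile normalization, so the count of 5 there rests on the scaling.

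*Tgfbr2* (chr9:115996813-116084481, minus strand), the type II receptor that binds TGF-β, did not rise in either genotype. It had 4.68 and 1.54 FPKM in WT and 3.62 and 8.59 FPKM in the *Pcgf5*-/- samples at day 0, and 1.26 and 1.54 FPKM in WT and 0.707 and 0.685 FPKM in the *Pcgf5*-/- samples at day 6. The day 0 values spread over more than 5-fold, with no order by genotype, and the highest of all came from *Pcgf5*-/- replicate 2. This library also had the highest FPKM of day 0 for 9 of the 12 feeder fibroblast markers, among them *Col1a1*, a fibrillar collagen, at 263 FPKM against 64.6 to 117 in the other 3 samples. It was highest at day 0 as well for 10 of the 12 neural progenitor, 5 of the 6 endothelial and 5 of the 8 mesendoderm markers. Of the neuron markers it was highest for 5 of 10, and of the naive pluripotency markers for 3 of 10. Some of these markers were near 0 even there, such as *Fabp7* at 0.109 FPKM. WT replicate 2, with the lowest *Tgfbr2* of day 0, had the lowest FPKM for 8 of the 12 feeder markers, but the lowest feeder sum (227 FPKM) was that of *Pcgf5*-/- replicate 1, where *Tgfbr2* was at 3.62 FPKM, so the day 0 samples did not have the same order in both. *Tgfbr2* fell 8.77-fold by mean FPKM in *Pcgf5*-/- cells from day 0 to day 6 (log2 fold change -1.97, or -2.98 with a pseudocount of 0.01, standard error 0.42, limma adjusted p = 0.00993) and did not pass the threshold in WT (-0.66, limma adjusted p = 0.219). Over the same days 9 of the 12 feeder markers fell in each genotype. Without *Pcgf5*-/- replicate 2 of day 0 the *Tgfbr2* value was -1.45 (limma adjusted p = 0.0515), and without *Pcgf5*-/- replicate 2 of day 6 the adjusted p was 0.0538. The share of *Tgfbr2* mRNA that came from feeder cells was not tested. Of the genes of other cell types, the 6 endothelial markers summed to 42.6 to 64.0 FPKM at day 0, to 9.47 and 5.27 FPKM in WT at day 6 and to 30.8 and 27.0 FPKM in *Pcgf5*-/- cells at day 6. Most of this was *Pecam1*, an adhesion molecule that mESCs also express, which was higher in *Pcgf5*-/- cells at day 6 (log2 fold change 2.12, limma adjusted p = 0.00393). The defining marker *Cdh5* was at 0 to 0.0657 FPKM at day 0 and at 0.117 to 0.423 FPKM at day 6, and the 8 mesendoderm markers summed to 4.04 to 23.4 FPKM over all samples.

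**Figure D3:**
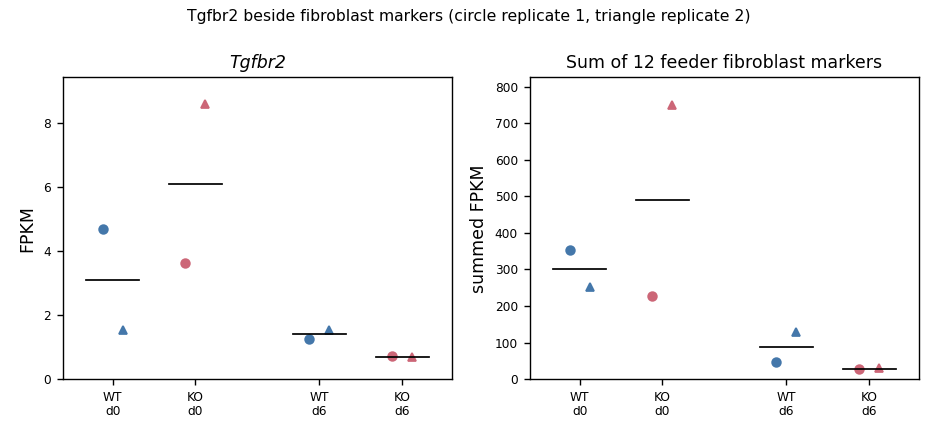
FPKM of *Tgfbr2* (left) and summed FPKM of the 12 feeder fibroblast markers (right) in each sample, circles for replicate 1, triangles for replicate 2 and lines for the mean. *Pcgf5*-/- replicate 2 of day 0 is highest in both panels, at 8.59 and 749 FPKM.

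To ask whether loss of *Pcgf5* altered the receptors before differentiation, the genotypes were compared at day 0. By limma none of the 10 receptors passed the threshold and none had an unadjusted p under 0.05, where 0.288% of all tested genes were called higher and 0.0454% lower and 17.4% had such a p. The point estimates lay between -0.14 for *Bmpr1a* and 0.81 for *Tgfbr2* (95% interval -0.16 to 1.78), and 6 of the 10 were above 0. The interval of *Tgfbr1* ran from -0.53 to 0.37 and that of *Bmpr1a* from -0.42 to 0.15. The median over the receptors was 0.12, beside 0.11 for all genes, and quantile normalization moved the latter to -0.0062 and turned *Acvr2a* (-0.019) and *Bmpr2* (-0.051) below 0. *Acvr1* was higher in both *Pcgf5*-/- samples, with a log2 fold change of 0.36 (limma adjusted p = 0.384).

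At day 6, 3 receptors were lower in *Pcgf5*-/- cells and none was higher. *Tgfbr1* was 2.06-fold lower by mean FPKM (log2 fold change -0.98, standard error 0.20, limma adjusted p = 0.0155), *Acvr2a* was 1.95-fold lower (-0.87, standard error 0.18, limma adjusted p = 0.0168), and *Bmpr1a* was 1.39-fold lower (-0.46, standard error 0.12, limma adjusted p = 0.0382). Thus 1 receptor of the TGF-β branch, 1 activin and BMP type II receptor and 1 BMP type I receptor were among the 7.05% of all tested genes called lower, against 9.57% called higher. Beyond these 3, no receptor had an unadjusted p under 0.05 by limma, where 32.7% of all tested genes had such a p. *Acvr2b* was 1.39-fold lower by mean FPKM and *Acvr1* 1.33-fold lower, both without overlap between the genotypes, but their log2 fold changes of -0.44 and -0.36 were not past the threshold (limma adjusted p = 0.255 and 0.239). *Tgfbr2* was also lower in both *Pcgf5*-/- samples, 2.01-fold by mean FPKM, with a log2 fold change of -0.50 (limma adjusted p = 0.453) that was -0.99 with a pseudocount of 0.01 (limma adjusted p = 0.285). *Bmpr2*, *Tgfbr3*, *Bmpr1b* and *Acvr1b* overlapped between the genotypes, with values of -0.18, -0.28, -0.070 and -0.026. For *Acvr1b* the 95% interval ran from -0.44 to 0.39, and quantile normalization moved it to 0.016. All 10 estimates were below 0, with a median of -0.40 beside 0.020 for all genes.

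The 3 calls depended on single libraries, for *Bmpr1a* on those of both days. Any fit that leaves out a library has a group of 1 sample. Calls were then lost both among the receptors and over all tested genes, so this loss is not particular to the receptors. *Tgfbr1* ran from -1.22 to -0.75 and *Acvr2a* from -0.999 to -0.75 over the fits that left out a sample. *Bmpr1a* ran from -0.53 to -0.40 and lost the threshold when any sample of either day was left out, with limma adjusted p from 0.0503 to 0.152. The comparison shares the WT samples of day 6 with that of the days in WT, so the rise of *Tgfbr1*, *Acvr2a* and *Bmpr1a* there and their lower level in *Pcgf5*-/- cells are not independent. The naive pluripotency markers were higher (9 of 10 called) and the neural progenitor markers lower (11 of 12 called) in the same *Pcgf5*-/- samples, and their part in the receptor values was not tested.

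**Figure D4:**
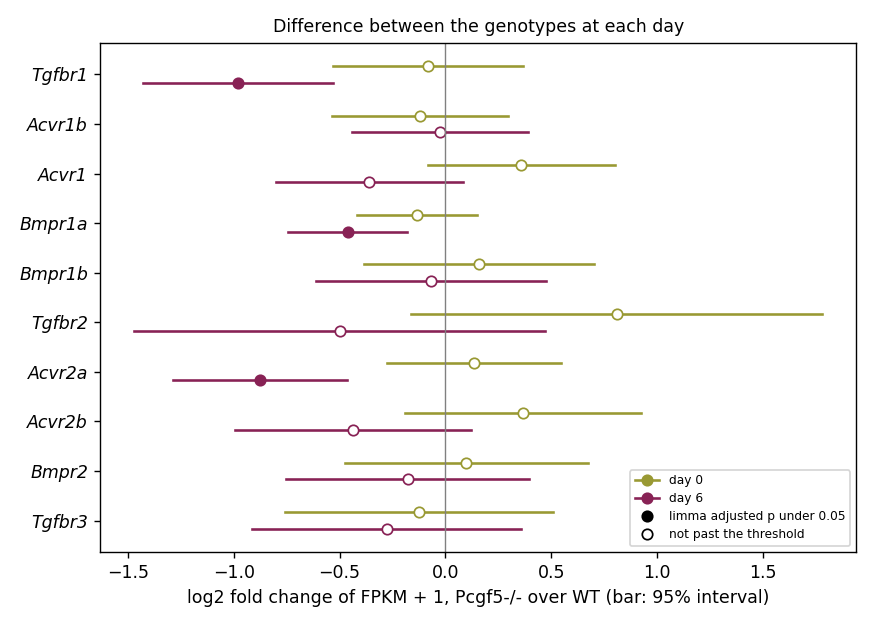
Log2 fold change of FPKM + 1 between *Pcgf5*-/- and WT at day 0 (olive) and day 6 (purple), with bars for the 95% interval of the limma fit and filled points for an adjusted p under 0.05. The filled points are *Tgfbr1* (-0.98), *Acvr2a* (-0.87) and *Bmpr1a* (-0.46) at day 6.

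Whether the genotype effect itself changed between the days was tested by the interaction term. In the fit without a replicate block none of the 10 receptors passed the threshold, where 1.34% of all tested genes were called with a more positive and 1.75% with a more negative effect at day 6. An unadjusted p under 0.05 was reached by 4 receptors, and by 23.2% of all tested genes. The 4 were *Acvr2a* (-1.01, limma adjusted p = 0.0684), *Tgfbr1* (-0.90, limma adjusted p = 0.108), *Acvr1* (-0.72, limma adjusted p = 0.170) and *Acvr2b* (-0.80, limma adjusted p = 0.210). The interval of *Acvr2a* ran from -1.59 to -0.43 and that of *Tgfbr1* from -1.53 to -0.27 before adjustment.

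Summed over the receptors, WT cells had 58.3 and 56.9 FPKM at day 0 and 126 and 105 FPKM at day 6, whereas *Pcgf5*-/- cells had 57.7 and 64.8 FPKM at day 0 and 81.8 and 70.0 FPKM at day 6. The WT samples of day 6 stood above the rest. The TGF-β and activin type I receptors (*Tgfbr1* and *Acvr1b*) summed to 14.6 ± 1.42 FPKM in WT at day 0 and 36.9 ± 7.62 FPKM at day 6 (SD, n = 2), and to 13.5 ± 1.31 and 21.3 ± 2.28 FPKM in *Pcgf5*-/- cells. The BMP type I receptors (*Acvr1*, *Bmpr1a* and *Bmpr1b*) summed to 27.5 ± 0.871 and 43.4 ± 2.56 FPKM in WT and to 27.4 ± 0.9499 and 31.8 ± 2.24 FPKM in *Pcgf5*-/- cells. The ratio of the first sum to the second was 0.530 ± 0.0685 in WT at day 0, 0.494 ± 0.0648 in *Pcgf5*-/- cells at day 0, 0.846 ± 0.126 in WT at day 6 and 0.668 ± 0.0246 in *Pcgf5*-/- cells at day 6. The type II receptors summed to 14.3 ± 1.32 and 33.5 ± 4.19 FPKM in WT and to 19.3 ± 5.22 and 21.7 ± 3.40 FPKM in *Pcgf5*-/- cells, where *Tgfbr2* alone made up 8.59 of 23.0 FPKM in *Pcgf5*-/- replicate 2 of day 0. These sums are given without a test.

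**Figure D5:**
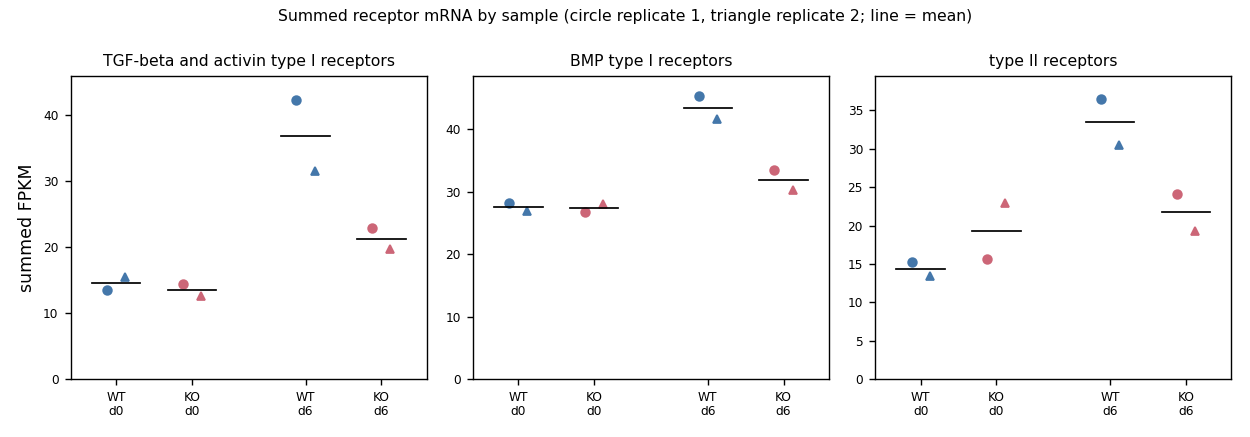
Summed FPKM of the TGF-β and activin type I receptors, the BMP type I receptors and the type II receptors in each sample, circles for replicate 1, triangles for replicate 2 and lines for the mean. In all 3 panels both WT samples of day 6 lie above both *Pcgf5*-/- samples of day 6.

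The receptors were set beside the rest of the pathway at day 6. In this comparison 9.57% of all tested genes were called higher in *Pcgf5*-/- cells and 7.05% lower. Of the other receptors and co-receptors, 6 of 10 were tested, of which 2 were higher and 1 lower in *Pcgf5*-/- cells. *Tdgf1*, the NODAL co-receptor Cripto, was higher by 2.44 on the log2(FPKM + 1) scale (limma adjusted p = 0.0147), with 41.2 and 12.5 FPKM in WT and 168 and 98.5 FPKM in *Pcgf5*-/- cells. *Eng*, or endoglin, was higher by 1.35 (limma adjusted p = 0.0179), and *Rgma*, a BMP co-receptor of the repulsive guidance family, was lower by a log2 fold change of -1.56 (limma adjusted p = 0.00560). The type I receptor *Acvr1c* was at 0.0158 FPKM or less in every sample. Among the ligands 4 of 15 tested were higher and 1 lower, led by *Gdf3* (2.60, limma adjusted p = 0.00758), *Lefty2* (2.30, limma adjusted p = 0.00901) and *Lefty1* (2.14, limma adjusted p = 0.0349), of which *Lefty1* and *Lefty2* encode inhibitors of NODAL. *Nodal* was among the 4 higher ligands as well (1.70, limma adjusted p = 0.00915). The study had itself examined *Nodal*, *Lefty1* and *Lefty2* in cells of this comparison, so their direction is not independent evidence.

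Downstream of the receptors, 3 of the 5 tested SMAD transducers were lower in *Pcgf5*-/- cells at day 6 and none was higher. The counts in this paragraph stand beside 7.05% of all tested genes called lower and 9.57% called higher at day 6. *Smad3*, a transducer of the TGF-β and activin branch, had a log2 fold change of -0.92 (limma adjusted p = 0.00936), *Smad5*, of the BMP branch, -0.69 (limma adjusted p = 0.0318), and the common *Smad4* -0.50 (limma adjusted p = 0.0478). Of the pathway targets 5 of 9 were lower, with *Id3* (-1.60, limma adjusted p = 0.0409), *Id2* (-1.37, limma adjusted p = 0.0389) and *Id1* (-1.06, limma adjusted p = 0.0174), classical BMP targets, at the front. Among the adaptors and regulators 1 of 14 passed, *Tgfbrap1*, a protein that binds TGF-β receptors (-0.83, limma adjusted p = 0.0201). Of the 3 tested soluble antagonists none did. None of these 3 had an unadjusted p under 0.05 by limma, where 32.7% of all tested genes did. At day 0 none of the 52 tested genes of these lists passed the limma threshold between the genotypes, and 3 had an unadjusted p under 0.05. Over all tested genes, 0.288% were called higher and 0.0454% lower at day 0, and 17.4% had such an unadjusted p.

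By the similarity of their log2(FPKM + 1) values over all 8 samples, the genes most like *Tgfbr1* were *Zbtb33* (Pearson r = 0.995), *Bmi1* (r = 0.994) and *Fam78b* (r = 0.994), out of 211 genes with r over 0.95. Those most like *Acvr2b* were *Mllt1*, *Dnajc3* and *Arel1* (r = 0.993 to 0.994), out of 583 such genes. The samples share day, genotype and library, so many genes follow the same 4 group means, and these values are a description.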

How the data were processed

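Poly(A)+ RNA of 8 samples was sequenced. The authors trimmed the reads, kept 1 copy of identical reads, used TopHat2 (2.0.4 in the submitters' processing notes) for alignment to mm9 and computed with Cufflinks (2.1.1) the deposited FPKM values, which hold no counts. Removal of identical reads lowers abundant transcripts. Depth behind a value is unknown here.

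Groups came from the sample labels. FPKM was tested as log2(FPKM + 1) with limma 3.58.1 in R 4.3.3, so fold changes of weakly expressed genes are understated. All 8 samples entered 1 fit with a mean for each group and a variance trend, over the 13214 genes with a group mean over 1 FPKM, and all 10 receptors passed. P-values were adjusted over all tested genes by the Benjamini-Hochberg method, two-sided, with a threshold of 0.05. The fit was tested on simulated data. Confidence intervals are at 95%.

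The receptors and gene lists were chosen with earlier results of these data known. Named genes of other lists are at most 3 of each list, those past the threshold with the largest change. *Nodal* was added to these as a ligand that the study examined. Loci and overlaps are those of NCBIM37 with GENCODE vM1, and file starts were shifted to count from 1. Promoter sequences are from RefSeq and were matched to NCBIM37. Alternatives were pseudocounts of 0.1 and 0.01, no minimum, a minimum of 5 FPKM, quantile normalization, replicate blocks, only the groups compared, no variance trend, a 1.5-fold rule and leaving out each sample. The study took fold changes in paired samples without saying what paired them, and the labels name nothing that equal replicate numbers share, so with 2 numbers they did not count as pairs.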

Additional observations from a re-analysis of the deposited data

How the results depend on the processing

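The files give no counts, so the depth behind a weak receptor such as *Bmpr1b* or *Tgfbr3* is unknown, and 2 samples a group leave the threshold within reach of single libraries. Between the genotypes at day 6 the receptors lost calls when a sample was left out, as did the tested genes as a whole. At day 0 the 1.5-fold rule without a test took 1, *Tgfbr2*, where it took 20.9% of the 11765 genes it covered. Between the genotypes at day 6 it took *Tgfbr1*, *Acvr2a* and *Tgfbr2*, but not *Bmpr1a* (1.39-fold). There it took 32.4% of the 12641 genes it covered. Over the days in *Pcgf5*-/- cells the count of 5 was 2 under quantile normalization and 3 with only the groups compared. These settings called 3695 and 3780 of the 13214 tested genes, beside 4271 in the main fit. Both the receptor count and the calls over all genes also fell when 1 of the *Pcgf5*-/- samples was left out. In WT the count of 7 stayed within 5 to 7 under every alternative that kept all samples, but not always with the same receptors. Under quantile normalization it held 5 that rose and the fall of *Tgfbr2*. Under the 1.5-fold rule *Tgfbr2* entered as a fall and *Bmpr1a* (1.49-fold) dropped out, where the rule took 54.2% of the 12753 genes it covered.

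Samples with the same replicate number deviated together between the genotypes at day 6 (Pearson r = 0.39 across genes) and hardly at day 0 (0.10). The replicate block left the counts at 0, 3 and 7 for the genotypes at day 0 and day 6 and the days in WT. It called 0.00757%, 18.2% and 52.5% of all tested genes in these comparisons. Over the days in *Pcgf5*-/- cells it brought *Tgfbr1* past the threshold, for 6 called, where it called 34.7% of all genes. A replicate block for each day called 2 receptors, *Tgfbr1* (limma adjusted p = 0.0430) and *Acvr2a* (0.0371), in the interaction of genotype and day, where it called 8.83% of all genes. The plain block called 0 receptors there and 3.25% of all genes. The other receptor counts of the block for each day were those of the plain block. In the same order of comparisons it called 2.13%, 24.5%, 58.1% and 41.9% of all genes.

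Some values near 0 changed sign, none of them past the threshold in any fit of that comparison. Quantile normalization moved *Acvr2a* to -0.019 and *Bmpr2* to -0.051 between the genotypes at day 0, *Acvr1b* to 0.016 between them at day 6, *Bmpr2* to -0.13 and *Tgfbr3* to -0.24 over the days in WT, and *Bmpr2* to -0.23 and *Tgfbr3* to -0.28 over the days in *Pcgf5*-/- cells. Leaving out a sample gave -0.25 to 0.011 for *Acvr1b* and -0.15 to 0.46 for *Bmpr1b* between the genotypes at day 0. At day 6 it gave -0.092 to 0.041 for *Acvr1b*, -0.24 to 0.10 for *Bmpr1b*, -0.45 to 0.095 for *Bmpr2* and -0.65 to 0.098 for *Tgfbr3*. Over the days it gave -0.20 to 0.55 for *Tgfbr3* in WT, and -0.23 to 0.077 for *Acvr1*, -0.22 to 0.32 for *Bmpr2* and -0.20 to 0.24 for *Tgfbr3* in *Pcgf5*-/- cells. In the interaction it gave -0.036 to 0.22 for *Acvr1b*, -0.53 to 0.077 for *Bmpr1b* and -0.53 to 0.22 for *Tgfbr3*. The cause was not tested. The minimum of 5 FPKM left out *Bmpr1b* and *Tgfbr3*.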
